A study of Homo sapiens with 5 samples.

Results

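Mature miR-203 and miR-205, a pair of microRNAs best known from keratinocytes, were examined in Caco2 cells in which PLEKHA7 had been targeted by an shRNA. They were taken as the 2 probes with the exact names hsa-miR-203 and hsa-miR-205 among the 654 human miRNA probes of the panel. Caco2 is an established human line from a colorectal adenocarcinoma whose cells polarise into a sheet, and PLEKHA7 is a protein of the adherens junction. The 3 shPLEKHA7 samples (replicates 1, 2 and 3) carried the PLEKHA7-directed shRNA, and the 2 NT samples (replicates 1 and 3) carried a non-target shRNA. All 5 samples were the same line, infected and then selected, with RNA from separate rounds of infection. The study asked how loss of PLEKHA7 affects miRNA levels, on NanoString's nCounter Human v2 miRNA panel, which counts reporter barcodes bound to each target without amplification.

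Samples were grouped by title. The source fields of shPLEKHA7 replicates 2 and 3 name other PLEKHA numbers, which differ from each other, and were set aside. The titles name a single shRNA target, and the labels name a single line. The panel has no PLEKHA7 probe, so depletion was not checked here. If the numbers that end the column names are lane positions, NT lanes came before shPLEKHA7 lanes, and position cannot be told apart from group. Total miRNA counts per lane ran from 32138 to 58298.

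A miRNA guides Argonaute proteins to messenger RNAs that pair with its seed, bases 2 to 8 from its 5′ end, and thereby lowers their output. In the epidermis miR-203 rises as keratinocytes leave the basal layer and represses p63, a transcription factor of epithelial progenitors. miR-205 is abundant in basal and progenitor cells of stratified and glandular epithelia. Like the miR-200 family, it represses ZEB1 and ZEB2, transcription factors that silence E-cadherin, the adhesion receptor of the junction in which PLEKHA7 sits. ZEB1 in turn represses miR-203 and the miR-200 genes.

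The target sequences of both probes matched 1 mature miRNA each in the RefSeq table of assembly GRCh38.p14. They are shown because the probe names do not give the hairpin arm, and capitals mark the seed.
miR-203: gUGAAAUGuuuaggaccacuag
miR-205: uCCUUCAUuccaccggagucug
The miR-203 probe reads hsa-miR-203a-3p, at chr14:104117469-104117490 on the plus strand, and the miR-205 probe reads hsa-miR-205-5p, at chr1:209432166-209432187 on the plus strand. Both are 22 bases long and come from opposite arms of their precursors, as the hairpins show, with the counted strand in capitals.
MIR203A: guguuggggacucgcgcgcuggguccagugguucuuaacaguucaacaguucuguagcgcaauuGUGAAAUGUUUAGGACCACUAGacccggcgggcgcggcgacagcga
MIR205: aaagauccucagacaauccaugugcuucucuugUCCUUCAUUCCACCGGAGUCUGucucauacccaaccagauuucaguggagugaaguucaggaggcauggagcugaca
In RefSeq the MIR205 hairpin lies within the long non-coding RNA gene MIR205HG, and the MIR203A hairpin overlaps MIR203B on the opposite strand.

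Among the other 653 human probes, 0 shared the miR-203 seed and 0 shared the miR-205 seed. The nearest probes by single-base edits were also far off: miR-580 and miR-943 stood 9 edits from miR-203, and miR-660 stood 8 edits from miR-205. Raw counts of miR-580 and miR-943 were 7 to 19 in shPLEKHA7 lanes and 6 to 8 in NT lanes, well under those of miR-203. miR-660 had 65, 27 and 70 raw counts in shPLEKHA7 replicates 1, 2 and 3 and 48 and 77 in NT replicates 1 and 3, all below miR-205 in the same lane.

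hsa-miR-205 was counted 387, 320 and 400 times in shPLEKHA7 replicates 1, 2 and 3, against 363 and 570 times in NT replicates 1 and 3. NT replicate 3 was the highest lane and NT replicate 1 lay among the shPLEKHA7 lanes, so the raw counts overlapped. Exact 95% Poisson intervals, which cover counting error only, ran from 349 to 428, 286 to 357 and 362 to 441 in those shPLEKHA7 lanes, and from 327 to 402 and 524 to 619 in the NT lanes. Each lane's detection limit, the mean plus 2 SD of its 8 negative-control probes, was exceeded 15.8 to 29.1 times in shPLEKHA7 lanes and 27.1 and 27.7 times in NT lanes. By raw count miR-205 ranked 22nd, 18th and 27th of the human probes in the shPLEKHA7 lanes and 19th and 18th in the NT lanes. Probes bind with different efficiency, so ranks describe counts and not molar amounts.

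hsa-miR-203 was counted 99, 98 and 114 times in shPLEKHA7 replicates 1, 2 and 3, against 97 and 113 times in NT replicates 1 and 3. The groups overlapped almost wholly. Every lane's 95% Poisson interval, from 80.5 to 121, 79.6 to 119 and 94.0 to 137 in shPLEKHA7 and from 78.7 to 118 and 93.1 to 136 in NT, contained each of the other 4 lanes' raw counts. The miRNA was 4.05 to 8.91 times the detection limit in shPLEKHA7 lanes and 7.23 and 5.49 times in NT lanes, and ranked between 37th and 54th by count in all lanes.

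The panel's 80 viral miRNA probes gave a second background. The highest viral probe had 75, 69 and 91 raw counts in shPLEKHA7 replicates 1, 2 and 3, and 68 and 66 in NT replicates 1 and 3. In each of the 5 lanes 0 of the 80 viral probes reached the miR-203 or miR-205 count. The detection limit was less strict: 10, 20 and 13 viral probes exceeded it in shPLEKHA7 replicates 1, 2 and 3, and 11 and 7 in NT replicates 1 and 3. A count above the limit therefore does not by itself show that a miRNA is present. For miR-203 the margin over the highest viral probe was smallest in shPLEKHA7 replicate 3, at 114 against 91 raw counts. It was 99 against 75 and 98 against 69 in shPLEKHA7 replicates 1 and 2. In NT replicates 1 and 3 it was 97 against 68 and 113 against 66.

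**Figure D1:**
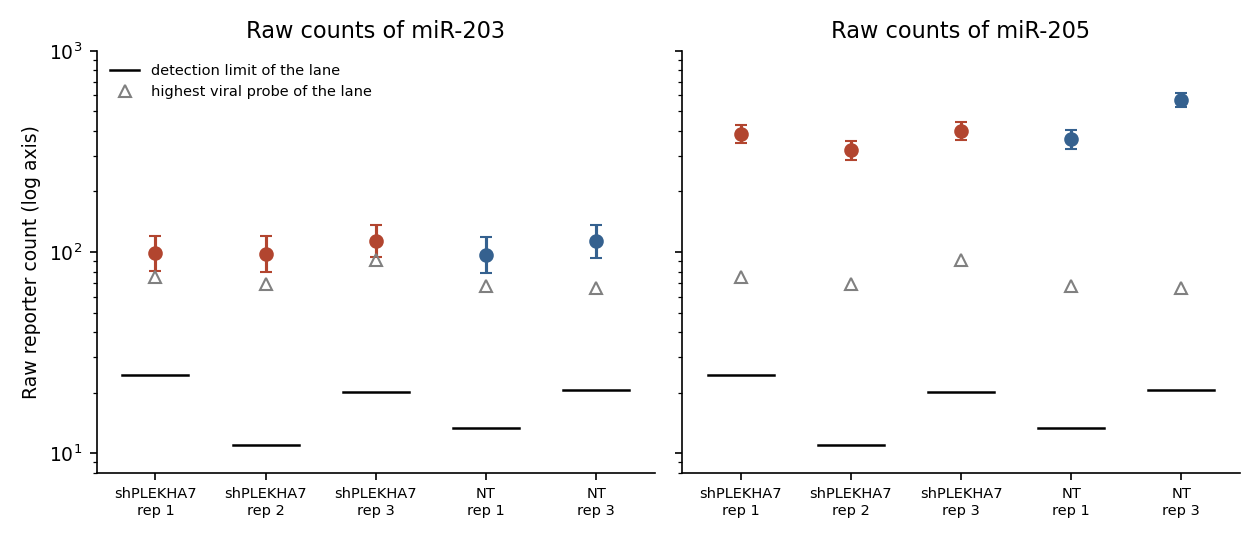
Raw counts (log axis) of miR-203, left, and miR-205, right, in each lane, shPLEKHA7 in red and NT in blue, with exact 95% Poisson intervals. Black lines mark each lane's detection limit and triangles its highest viral probe; miR-203 stays between 97 and 114 in all lanes while miR-205 spans 320 to 570.

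The raw miR-203 count was nearly level although the lanes differed in depth. Its highest lane was 1.18 times its lowest, against 1.81 times for the total miRNA count and a median of 2.09 times over the 121 human probes above the limit in every lane. Of these probes 0 had a smaller ratio than miR-203, a feature singled out after its values were seen. For miR-205 the ratio was 1.78, and 25 of these probes had a smaller one. As a share of the lane's miRNA count, the highest miR-203 lane was 1.56 times the lowest, and the highest miR-205 lane 1.65 times.

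Counts were scaled to depth by TMM, which divides each lane by an effective library size taken from the bulk of the probes. On that scale miR-205 was at 344, 429 and 295 normalized counts in shPLEKHA7 replicates 1, 2 and 3, against 449 and 523 in NT replicates 1 and 3. All shPLEKHA7 lanes lay below both NT lanes, the closest being shPLEKHA7 replicate 2, the lane with the smallest total count. The means were 356 ± 67.7 in shPLEKHA7 (SD, n = 3) and 486 ± 52.3 in NT (SD, n = 2). The log2 fold change was -0.46 (SE 0.17), with a 95% interval from -0.84 to -0.08, a level 27.3% lower in shPLEKHA7 cells. By edgeR's quasi-likelihood test over 204 tested probes the p was 0.0235 and the Benjamini-Hochberg adjusted p was 0.133, so miR-205 did not pass the threshold of 0.05. Of the 204 tested probes 189 were human and the rest viral.

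miR-203 was at 88.1, 131 and 84.1 TMM-normalized counts in shPLEKHA7 replicates 1, 2 and 3, against 120 and 104 in NT replicates 1 and 3. shPLEKHA7 replicate 2 was the highest of all lanes and the other two shPLEKHA7 lanes were the lowest, so the groups overlapped. The means were 101 ± 26.2 in shPLEKHA7 (SD, n = 3) and 112 ± 11.5 in NT (SD, n = 2). The log2 fold change was -0.17 (SE 0.21), with a 95% interval from -0.64 to 0.31 (edgeR adjusted p = 0.696). That interval spans a level 36.0% lower to one 23.8% higher in shPLEKHA7 cells.

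Of the 2 miRNAs 0 were called, against 6.37% of all tested probes (13 of 204), with 2.45% called higher and 3.92% called lower. That split moved with the scaling, from 5 higher and 8 lower under TMM to 12 and 8 under total counts, 4 and 2 under the deposited lane factors and 4 and 29 under spike-in totals. At an unadjusted edgeR p under 0.05, as miR-205 had, 11.8% of tested probes were lower. Non-overlapping groups were common in these lanes. They were seen in 48.0% of tested probes, and in 22.1% with every shPLEKHA7 lane below both NT lanes, as for miR-205. By unadjusted p miR-205 stood 36th of the 204 and miR-203 130th. In bulk RNA, fewer cells carrying a miRNA and less of it per cell cannot be told apart.

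**Figure D2:**
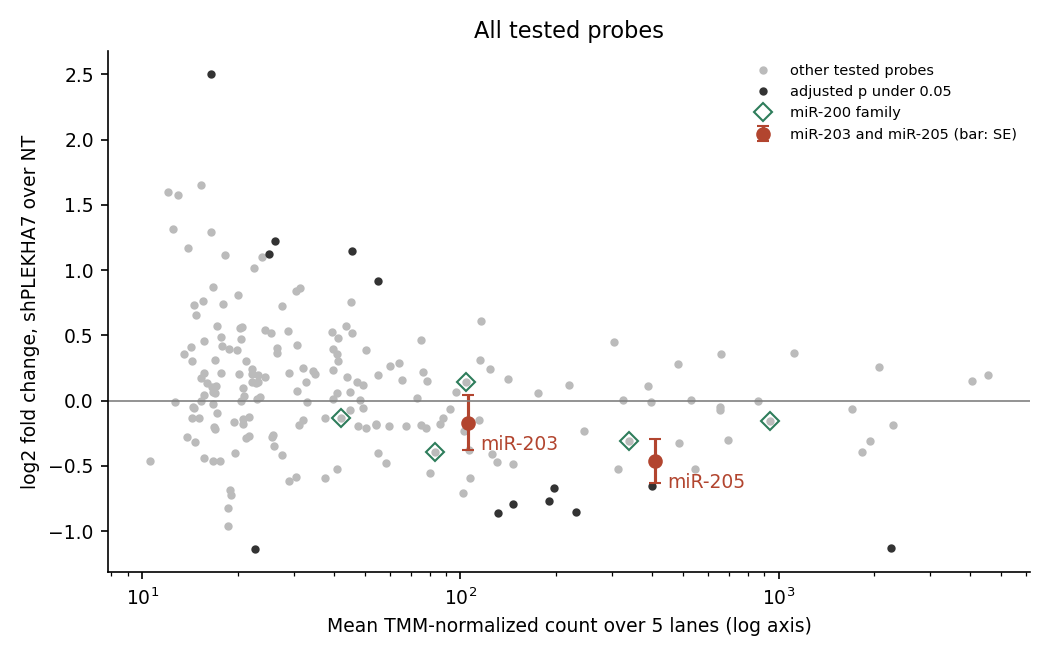
Log2 fold change (shPLEKHA7 over NT) against mean TMM-normalized count (log axis) for the 204 tested probes, with miR-203 and miR-205 in red (bars are SE) and the miR-200 family as green diamonds. miR-205 at -0.46 and miR-203 at -0.17 lie below 0 among many probes that were not called.

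The difference in level depended on how lanes were made comparable, and 2 other scalings separated the groups for both miRNAs. The share of all tested probes that separated on those 2 scales was not counted. Under TMM it was 48.0%, so separation alone does not single out these miRNAs. The authors' deposited normalized signal equalises the geometric mean of 5 housekeeping mRNAs across lanes. On it miR-205 read 362.06, 363.26 and 359.42 in shPLEKHA7 replicates 1, 2 and 3, against 444.87 and 619.61 in NT replicates 1 and 3. The shPLEKHA7 lanes were thus almost equal (362 ± 2.0, SD, n = 3) and the NT lanes far apart (532 ± 124, SD, n = 2). With edgeR on those lane factors the log2 fold change was -0.56 (SE 0.33, adjusted p = 0.393). The spread assigned to all probes was larger there, at a common dispersion of 0.0408 against 0.0153 under TMM.

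The deposited signal of miR-203 was 92.62, 111.25 and 102.43 in shPLEKHA7 replicates 1, 2 and 3, against 118.88 and 122.83 in NT replicates 1 and 3. Here the groups did not overlap, unlike under TMM, and the means were 102 ± 9.3 in shPLEKHA7 (SD, n = 3) and 121 ± 2.8 in NT (SD, n = 2). edgeR on those lane factors gave a log2 fold change of -0.24 (SE 0.31, adjusted p = 0.828).

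Counts were also set against the 6 positive controls, synthetic spike-in targets that every lane receives. The spike-in totals were 14017, 10670 and 14239 in shPLEKHA7 replicates 1, 2 and 3, and 7686 and 10656 in NT replicates 1 and 3. Whether the lanes received equal amounts of RNA was not tested. On the spike-in scale miR-205 stood at 27.6, 30.0 and 28.1 counts per 1000 spike-in counts in shPLEKHA7 replicates 1, 2 and 3, against 47.2 and 53.5 in NT replicates 1 and 3. miR-203 stood at 7.06, 9.18 and 8.01 in shPLEKHA7, against 12.6 and 10.6 in NT. Both miRNAs were lower in every shPLEKHA7 lane, and edgeR with spike-in totals as library sizes called miR-205 lower (log2 fold change -0.82, SE 0.27, adjusted p = 0.024). Under that scaling 14.2% of all tested probes were called lower (29 of 204), against 4 probes called higher. miR-203 was at -0.52 (SE 0.27, adjusted p = 0.192).

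Spike-in scaling moved all probes together, with a median log2 fold change of -0.27 over the tested probes, against 0.06 under TMM and 0.15 under total counts. Relative to the median of all tested probes, miR-205 lay between -0.56 and -0.51 and miR-203 between -0.25 and -0.22 under the 5 scalings run in edgeR. A lane scaling shifts all probes by about the same amount, so this narrow range follows from the arithmetic.

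**Figure D3:**
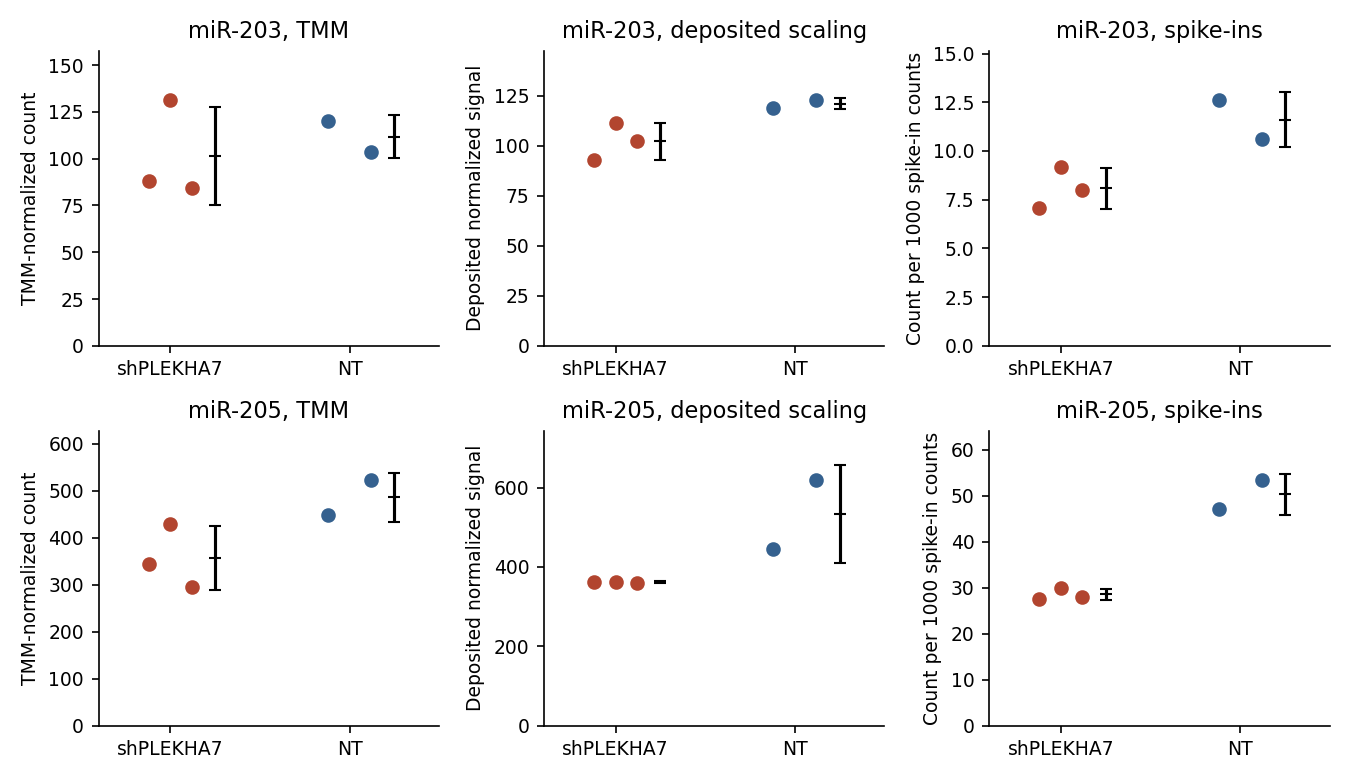
miR-203 (top) and miR-205 (bottom) in shPLEKHA7 (left, red) and NT (right, blue) lanes after TMM, in the deposited normalized signal and per 1000 spike-in counts, with mean and SD beside the points. Of these 3 scales the miR-203 groups overlap under TMM only, and the deposited miR-205 values of the shPLEKHA7 lanes lie between 359.42 and 363.26.

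A ratio of raw counts within a lane needs no scaling. miR-205 was 3.91, 3.27 and 3.51 times miR-203 in shPLEKHA7 replicates 1, 2 and 3, against 3.74 and 5.04 times in NT replicates 1 and 3. NT replicate 1 lay inside the shPLEKHA7 range, and NT replicate 3 stood above all lanes. The mean log2 ratio was 1.83 ± 0.13 in shPLEKHA7 (SD, n = 3) and 2.12 ± 0.30 in NT (SD, n = 2), a difference of -0.29 (2-sided exact permutation p = 0.3, where 0.1 is the smallest these 5 lanes can give). Without NT replicate 3 that difference was -0.08 and without NT replicate 1 it was -0.51. A different response of the 2 miRNAs to the shRNA was thus not detectable in these lanes.

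The miR-200 family, which shares ZEB1 and ZEB2 as targets with miR-205, has other seeds, shown in capitals for comparison with the pair above.
miR-200a: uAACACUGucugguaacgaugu
miR-141: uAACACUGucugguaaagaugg
miR-200b: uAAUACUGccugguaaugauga
miR-200c: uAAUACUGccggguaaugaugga
miR-429: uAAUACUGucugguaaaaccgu
All 5 family members were tested and 0 were called, where 6.37% of all tested probes were. Of the 5, 4 were below 0, as were 89 of all 204 tested probes, and the family's median log2 fold change was -0.15, beside 0.06 over all probes. miR-200c, the most counted of them, was at 903, 928 and 860 TMM-normalized counts in shPLEKHA7 replicates 1, 2 and 3, against 997 and 997 in NT replicates 1 and 3. Its groups did not overlap, yet the log2 fold change was small at -0.15 (SE 0.12, edgeR adjusted p = 0.5). miR-200a and miR-200b were at log2 -0.39 (SE 0.18) and -0.31 (SE 0.15), and miR-429 and miR-141 at -0.14 (SE 0.23) and 0.14 (SE 0.25).

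Against the geometric mean of these 5 probes in the same lane, miR-205 stood at 2.16, 3.04 and 1.81 in shPLEKHA7 replicates 1, 2 and 3, against 2.85 and 2.77 in NT replicates 1 and 3. The NT values were nearly equal and fell inside the wider shPLEKHA7 range. The difference in mean log2 ratio was -0.30 (2-sided exact permutation p = 0.4). miR-203 stood at 0.552, 0.932 and 0.517 in shPLEKHA7, against 0.762 and 0.549 in NT, a log2 difference of -0.01 (2-sided exact permutation p = 1). In both ratios shPLEKHA7 replicate 2 was the highest lane.

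**Figure D4:**
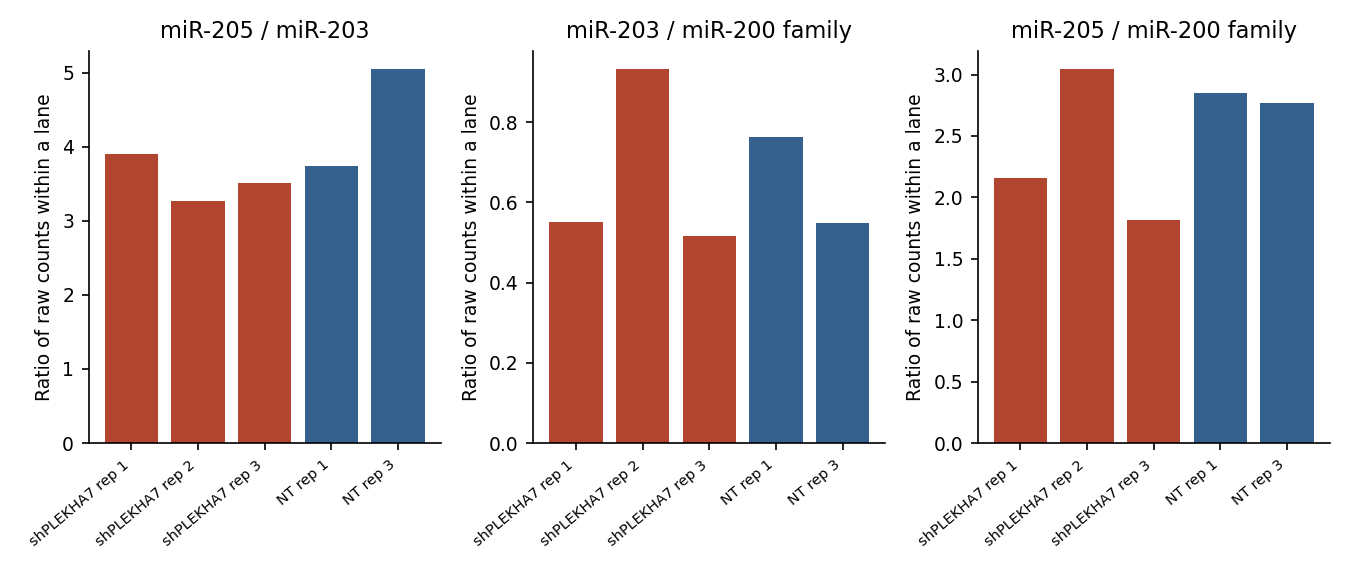
Ratios of raw counts within each lane, shPLEKHA7 lanes in red and NT lanes in blue, for miR-205 over miR-203 and for each over the geometric mean of the 5 miR-200 family probes. The groups overlap in all 3 panels; NT replicate 3 is highest in the first at 5.04, and shPLEKHA7 replicate 2 in the others.

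The likeness of lane patterns was measured as the root-mean-square difference of log2 TMM-normalized counts over the 5 lanes, after centring each probe. Of 120 other human probes above the limit in every lane, miR-335 (0.13), miR-183 (0.15) and miR-193b (0.16) were closest to miR-205. miR-335 was at 104, 110 and 72.3 normalized counts in shPLEKHA7 replicates 1, 2 and 3, against 122 and 122 in NT replicates 1 and 3. The log2 fold changes of miR-335, miR-183 and miR-193b were -0.38 (SE 0.20), -0.59 (SE 0.16) and -0.48 (SE 0.17). The likeness was measured on the same lanes with the group difference left in, so similar fold changes follow from the choice. Of these 3, 0 passed the edgeR test, where 6.37% of all tested probes did. Closest to miR-203 were miR-626 (0.14), miR-191 (0.19) and miR-103 (0.20). miR-626, at 22.3, 30.8 and 17.0 normalized counts in shPLEKHA7 lanes and 24.7 and 20.2 in NT lanes, is close to the detection limit. miR-203 and miR-205 lay 0.22 apart, which made miR-205 the 8th closest probe to miR-203 and miR-203 the 11th closest to miR-205.

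Of 11 probes for miRNAs described in epidermis or squamous epithelium, miR-203 and miR-205 included, 8 were tested, 1 was called lower and 0 higher, where 3.92% and 2.45% of all tested probes were, and the median log2 fold change was -0.15, beside 0.06 over all tested probes. The called one was miR-24, described in keratinocyte differentiation, at 166, 169 and 188 TMM-normalized counts in shPLEKHA7 replicates 1, 2 and 3, against 309 and 322 in NT replicates 1 and 3. Its groups lay far apart (log2 fold change -0.85, SE 0.13, edgeR adjusted p = 0.0186). miR-31 and miR-34a were at log2 -0.28 (SE 0.23) and -0.13 (SE 0.22). miR-125b, miR-210 and miR-483-3p were at 0.56 (SE 0.43), 0.30 (SE 0.31) and 0.40 (SE 0.47), each below the limit in at least 1 lane. miR-184, which is found in cornea and epidermis, had 9, 4 and 10 raw counts in shPLEKHA7 lanes and 9 and 7 in NT lanes, below every lane's limit, as did miR-198. miR-34c-5p exceeded the limit in 1 lane.

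The keratinocyte markers in the check of cell identity were miR-203, miR-205 and miR-184. The 2 of these 3 above the limit in all lanes were the members miR-203 and miR-205 themselves, so this list gives no independent check. The summed count of the 3 was 0.899% to 1.31% of the lane's miRNA count in shPLEKHA7 and 1.34% to 1.37% in NT. All 5 miR-200 family probes, general markers of epithelium, exceeded the limit in every lane, at 3.24% to 3.46% in shPLEKHA7 and 3.56% to 3.70% in NT. Of the intestinal markers miR-192 and miR-194 did so too, while miR-215 was below the limit in both NT lanes, and the 3 together took 1.15% to 1.67% in shPLEKHA7 and 1.15% to 1.30% in NT. miR-215 was the one intestinal marker called, higher in shPLEKHA7 cells (log2 fold change 1.22, SE 0.31, edgeR adjusted p = 0.048), against NT lanes that were not above the limit. Probes for both keratinocyte and intestinal miRNAs thus exceeded the limit in the same lanes. Each of the blood (miR-223), stroma (miR-214), muscle (miR-206) and neuron (miR-9) lists had 1 probe above the limit in every lane. miR-206 had 91, 56 and 66 raw counts in shPLEKHA7 replicates 1, 2 and 3 and 59 and 54 in NT replicates 1 and 3. That was below miR-203 in each lane, but near its 99 in shPLEKHA7 replicate 1. The blood, stroma, muscle and neuron lists took at most 0.204%, 0.185%, 0.236% and 0.113% of the miRNA count in shPLEKHA7 and 0.185%, 0.120%, 0.189% and 0.117% in NT. Of their other members miR-451, miR-150, miR-143, miR-199a-5p, miR-133a and miR-124 were below the limit in all 5 lanes, while miR-142-3p and miR-145 exceeded it in 3 lanes each and miR-1 in 1. The part of these other cell types' markers in the results was not tested.

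The call for miR-205 turned on the setting. It was called lower without shPLEKHA7 replicate 2 (log2 fold change -0.62, SE 0.19, edgeR adjusted p = 0.0256), the lane in which both miRNAs were highest of their group after scaling. In that fit 17 of 173 tested probes were called, 11 lower and 6 higher. Without NT replicate 3 miR-205 was at -0.31 (SE 0.21), with the lone NT lane assumed to vary like the shPLEKHA7 lanes. miR-203 was called in 0 of the settings run, and without shPLEKHA7 replicate 2 it was at -0.39 (SE 0.21, adjusted p = 0.256).

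**Figure D5:**
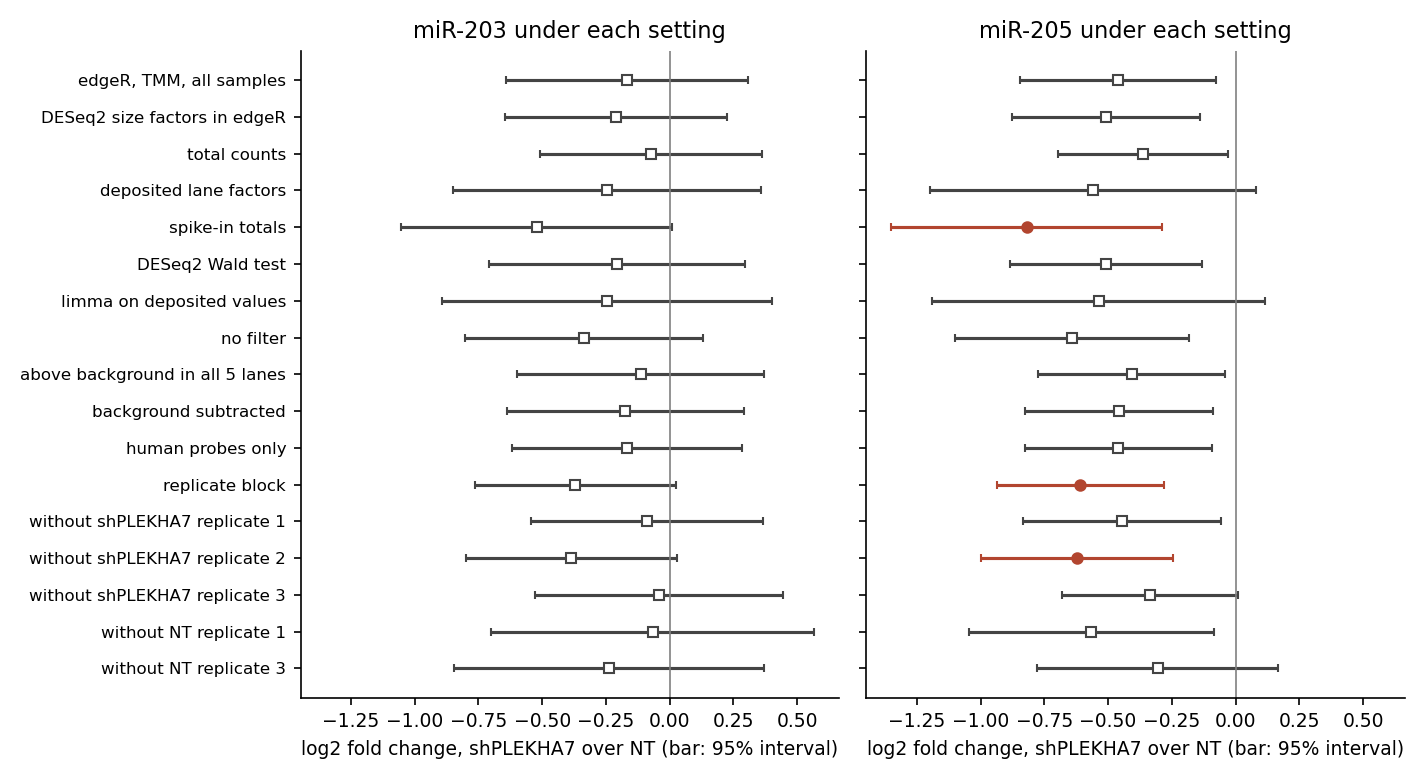
Log2 fold change (shPLEKHA7 over NT) with 95% interval for miR-203, left, and miR-205, right, under each processing setting; filled red circles mark an adjusted p under 0.05 and open squares the rest. Every estimate lies below 0, from -0.52 to -0.04 for miR-203 and from -0.82 to -0.31 for miR-205, with filled circles for miR-205 only.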

How the data were processed

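The authors deposited raw counts per probe and lane (734 miRNA, 8 negative-control, 6 positive-control and 5 mRNA probes) and a table of normalized signal. The exporting software is not given in the sources used here. Although that table's name speaks of positive controls, 100% of the deposited signal values of human probes equalled raw count times 1 factor per lane, and these factors level the housekeeping mRNAs. The 10 baseline and fold columns of that table were not used.

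Raw counts of miRNA probes above the mean plus 2 SD of the lane's negative controls in at least 2 lanes (204 of 734) were tested with edgeR 4.0.16 (R 4.3.3): TMM scaling, quasi-likelihood test, group as the only term, Benjamini-Hochberg adjustment over all 204. SEs were derived from the F statistic (size of the log2 fold change divided by √F). Within-lane ratios had exact permutation tests over the 10 splits of the lanes. Alternatives were other scalings, DESeq2 1.42.0 (without independent filtering), limma 3.58.1 on log2 of the deposited signal plus 1, other filters, background subtraction (floor 1), a replicate block and leaving out each sample. The edgeR step was tested on simulated data.

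The members, marker lists, tests and the rule for named miRNAs (both members, the miR-200 family, 11 epidermal probes, the 3 most similar patterns and the nearest sequences) were chosen with earlier results of these data known.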

Additional observations from a re-analysis of the deposited data

How the results depend on the processing

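Both miRNAs had negative log2 fold changes under every alternative run. miR-205 was called under spike-in totals (log2 -0.82), with a replicate block (-0.61, edgeR adjusted p = 0.0126) and without shPLEKHA7 replicate 2. It lay between -0.62 and -0.31 when 1 sample was left out. shPLEKHA7 replicate 2 has no NT lane of its number, so in the block it adds nothing to the group effect. The block and the fit without that lane thus drew on the same lanes and are not separate lines of support. miR-203 was called under 0 alternatives and lay between -0.39 and -0.04 when 1 sample was left out. The labels do not say that a shared replicate number marks a pair, so the block was run as an alternative only. Deviations of same-numbered lanes correlated weakly across probes (r = 0.02 for number 1 and 0.14 for number 3). shPLEKHA7 replicate 2 and NT replicate 1, of unlike number, gave 0.14 too. With 2 NT lanes their deviations mirror each other, so these correlations cannot decide the pairing. The common dispersion was 0.0081 with the block, 0.0153 in the main fit and 0.0177 without shPLEKHA7 replicate 2. The count of called probes, 13 of 204, 5 higher and 8 lower, was 20 under total counts (12 higher, 8 lower), 6 under the deposited lane factors (4 and 2), 33 under spike-in totals (4 and 29), 7 with limma on the deposited signal (5 and 2), 22 with the replicate block (10 and 12), and 0 to 18 with a sample left out. Leaving out NT replicate 1 gave 1 call and leaving out NT replicate 3 gave 0 (38 and 34 probes had an unadjusted edgeR p under 0.05). The cause of these shifts was not tested. The miR-205 over miR-203 ratio kept its direction, from -0.51 to -0.08 with a sample left out, as did miR-205 over the miR-200 family, from -0.51 to -0.13. The difference in miR-203 over the miR-200 family, near 0, ran from -0.28 to 0.23 and turned positive without shPLEKHA7 replicate 1 (0.10), shPLEKHA7 replicate 3 (0.15) or NT replicate 1 (0.23). With 5 lanes the exact permutation test used for these ratios cannot give a p below 0.1.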
